A study of Mus musculus with 10 samples.

Results

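The phase II conjugation enzymes of mouse liver were followed in 10 liver RNA libraries from mice given AAV8-NC or AAV8-TBG-galectin-3. Members were all genes whose symbol matched 1 of 3 family name patterns. The first was Ugt1, Ugt2 or Ugt3 with a letter and a number (UDP-glucuronosyltransferases and the related Ugt3 enzymes). The others were Sult (cytosolic sulfotransferases) and Gst of classes a, k, m, o, p, t or z (soluble glutathione transferases and the kappa enzyme). The rule used names only and found 58 of the 29657 genes of the table, namely 17 Ugt, 17 Sult and 24 Gst genes. The animals were wild-type C57BL/6 mice, all kept for 8 weeks on CDAHFD, a high-fat diet that lacks choline and holds defined amino acids and that produces steatohepatitis. The 5 control libraries came from mice given the AAV8-NC vector intravenously, and the 5 libraries of the group labelled as a liver galectin-3 knockdown from mice given AAV8-TBG-galectin-3, whose TBG promoter is active in hepatocytes. The labels give neither the sex nor the age of the mice and do not describe the sequence that the vector carries. They number the replicates without stating that each came from its own mouse, so p-values measure the spread between these libraries. Expression was given as FPKM, a read density in which each gene's fragments are scaled to its length and to the size of the library.

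Phase II enzymes attach a polar group to drugs, hormones, bilirubin and bile acids so that these can be excreted in bile or urine. The Ugt1 and Ugt2 enzymes transfer glucuronic acid from UDP-glucuronate, and the Sult enzymes transfer sulfate from the donor PAPS. The Gst enzymes attach glutathione to electrophiles such as lipid peroxidation products. The liver holds these enzymes at high levels, mainly in hepatocytes, and their genes are known targets of the nuclear receptors CAR and PXR, of the aryl hydrocarbon receptor and of NRF2. Many Ugt, Sult and Gst genes of mouse lie in clusters of close copies, and several differ between the sexes through growth hormone signalling.

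The sequences upstream of the Ugt2b and Gstp members on which the results turn are printed because these neighbouring copies differed in whether they passed the test. They come from RefSeq, build GRCm38.p6, run 5′ to 3′ on the gene's strand and stop short of the transcription start. In the Ugt2b group each stretch covers the 200 bases before the annotated start, and capitals mark the 22 bases that all 3 share without a mismatch. Ugt2b38 is at chr5:87424204-87424403, Ugt2b5 at chr5:87140341-87140540 and Ugt2b36 at chr5:87092556-87092755, all on the minus strand and all outside any gene annotated in GENCODE M21.
Ugt2b38: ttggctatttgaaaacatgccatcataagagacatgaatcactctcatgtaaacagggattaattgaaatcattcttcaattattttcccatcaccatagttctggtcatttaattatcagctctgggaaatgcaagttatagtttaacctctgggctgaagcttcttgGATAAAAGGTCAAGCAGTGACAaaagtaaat
Ugt2b5: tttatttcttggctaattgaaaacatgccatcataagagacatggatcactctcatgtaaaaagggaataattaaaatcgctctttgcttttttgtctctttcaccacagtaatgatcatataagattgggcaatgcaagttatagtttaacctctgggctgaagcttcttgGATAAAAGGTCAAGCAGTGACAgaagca
Ugt2b36: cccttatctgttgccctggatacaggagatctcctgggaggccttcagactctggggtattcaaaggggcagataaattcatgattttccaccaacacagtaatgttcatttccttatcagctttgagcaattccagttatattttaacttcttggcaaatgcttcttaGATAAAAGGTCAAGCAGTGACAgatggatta

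In the Gstp pair the 120 bases from 200 to 81 before the RefSeq start are shown, and capitals mark the longest run that the pair shares, 23 bases. Gstp1 is at chr19:4037993-4038112, outside any annotated gene. Gstp2 is at chr19:4042302-4042421, inside the intron of a longer Gstp2 transcript in GENCODE M21. Both lie on the minus strand.
Gstp1: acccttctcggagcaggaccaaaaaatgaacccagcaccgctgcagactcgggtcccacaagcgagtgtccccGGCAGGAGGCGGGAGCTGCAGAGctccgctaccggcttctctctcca
Gstp2: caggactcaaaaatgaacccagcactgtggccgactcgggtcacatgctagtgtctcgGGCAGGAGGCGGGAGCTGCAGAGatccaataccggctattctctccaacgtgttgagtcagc

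Over windows of 300 bases around the start, from 250 before to 50 after it, Ugt2b38 was 84.2% identical to Ugt2b5 and 63.5% identical to Ugt2b36 in a global alignment with gaps counted. Gstp1 and Gstp2 were 77.1% identical. Windows were found for 49 of the 58 members, some with several starts, which gave 16 Ugt, 16 Sult and 28 Gst windows. The HNF1 half-site GTTAAT, searched on both strands, was in 5 Ugt, 4 Sult and 1 Gst windows, beside 7.10% of all 32851 windows of the table. The core of the antioxidant response element, TGACNNNGC, was in 0 Ugt, 0 Sult and 3 Gst windows, beside 12.4% of all windows. The core of the xenobiotic response element, GCGTG, was in 2 Ugt, 4 Sult and 7 Gst windows, beside 32.4% of all windows. The STAT5 motif TTCNNNGAA was in 0 Ugt, 1 Sult and 2 Gst windows, beside 8.30% of all windows. Matches to different motifs were counted separately, overlapping or not, and a match describes letters in the window, not binding.

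The targeted gene was read first. Lgals3, which encodes galectin-3, was at 105, 73.9, 61.6, 71.0 and 42.2 FPKM in control libraries 1 to 5. In libraries 1 to 5 labelled AAV8-TBG-galectin-3 it was at 67.4, 90.8, 85.2, 85.6 and 41.9 FPKM. The groups overlapped, with means of 70.8 and 74.2 FPKM and a log2 fold change of 0.08 (SE 0.25, adjusted p = 0.856). No fall of the transcript was detected in whole liver, and the second group is called the labelled knockdown throughout. In whole liver, fewer cells of a type and less RNA per cell cannot be told apart.

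Control library 5 stood apart from the other 9 in several members. Sult2a2, a hydroxysteroid sulfotransferase, was at 16.7 FPKM there, beside 0.382 to 0.677 in the other controls and 0 to 0.906 in the labelled knockdown. Ugt1a2 was at 30.4 FPKM there and between 0 and 2.41 in the other 9. Sult2a8, a liver sulfotransferase of the same subfamily, was low instead, at 10.7 FPKM against 43.1 to 62.0 in the other controls. Gstt1, a theta class transferase, was at 56.0 FPKM against 86.4 to 95.9 in the other controls.

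The same library held 371 FPKM of Cyp2a4, a female-biased P450, where the other 9 held 6.10 to 87.7. Its Mup20, a male-biased urinary protein, was the lowest of the 10 at 743 FPKM, against 1497 to 4561. The summed level of 7 female-biased genes, of which Sult2a1 and Sult3a1 are themselves members, was 443 FPKM in control 5, 16.9 to 51.4 in the other controls and 65.0 to 109 in the labelled knockdown. The summed level of 7 male-biased genes, of which Gstp1 is a member, was 1238 FPKM in control 5, 2220 to 5103 in the other controls and 2223 to 2920 in the labelled knockdown. The Y chromosome transcripts and Xist summed to between 23.1 and 26.2 FPKM in every library, with Xist at 0.0189 or less. Control 5 was the lowest or the highest of the 10 in 16 of the 43 tested members, or 37.2%, beside 30.7% of all tested genes. Labelled knockdown library 1 was so in 15 members, or 34.9%, beside 32.3% of all tested genes, and labelled knockdown library 5 in 13, or 30.2%, beside 33.2%. Values without control 5 are given where a call changes.

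**Figure D1:**
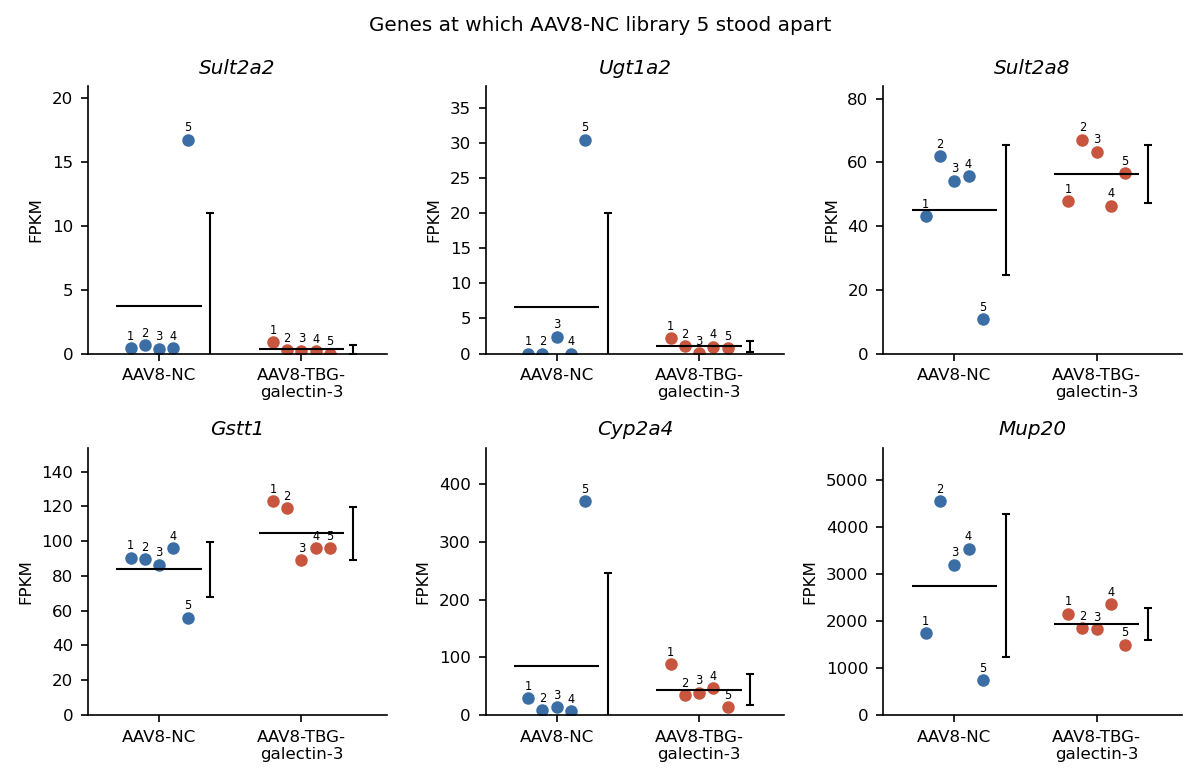
Each point is 1 library, numbered by replicate, with FPKM on a linear axis from 0; the horizontal line is the group mean and the bar beside it is 1 SD (n = 5), cut at 0. Control library 5 lies above the others at Sult2a2, Ugt1a2 and Cyp2a4 and below them at Sult2a8, Gstt1 and Mup20.

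Of the 58 members, 43 reached 0.5 FPKM in at least 5 libraries and were tested: 14 Ugt, 7 Sult and 22 Gst genes. Of the 15 that were not tested, 10 were Sult genes: Sult2a2, above 1 FPKM in control 5 alone, and Sult2a1, Sult2a3, Sult2a5, Sult2a7, Sult2b1, Sult3a1, Sult4a1, Sult6b1 and Sult6b2, which stayed under 1 FPKM in every library. The others were Ugt1a8, Ugt1a10, Ugt2a1, Gsto2 and Gstt4. Together the Ugt members held 0.27% of all FPKM in the controls and 0.244% in the labelled knockdown. The Sult members held 0.0793% and 0.0906%, and the Gst members 0.733% and 0.818%. Within each family few genes carried most of the level: Sult1a1 made up 57.6% of the Sult total, Gstm1 49.7% of the Gst total, and Ugt2b5 and Ugt1a1 24.8% and 20.1% of the Ugt total.

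**Figure D2:**
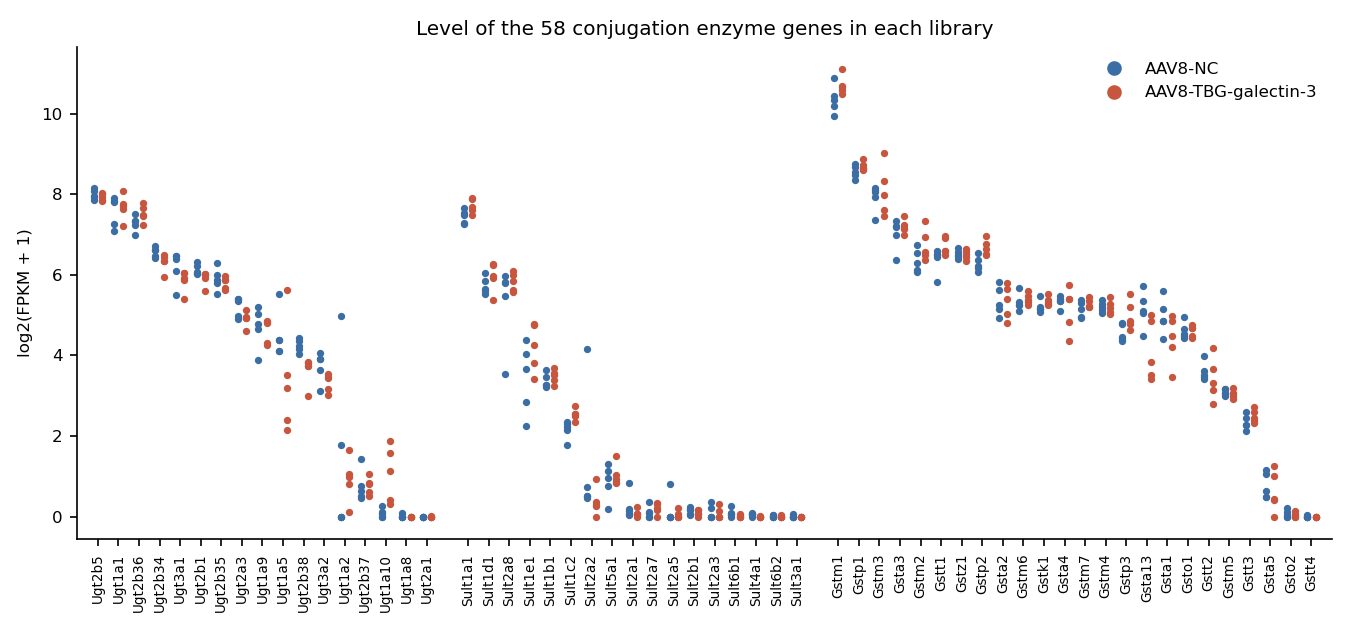
Level of each of the 58 members as log2(FPKM + 1), ordered by mean level within the Ugt, Sult and Gst families from left to right, with 1 point for each of 5 AAV8-NC and 5 AAV8-TBG-galectin-3 libraries. Gstm1 stands highest, 17 members average under 1 FPKM, and the 2 groups overlap at every gene but Ugt2b38 and Ugt1a10.

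Few conjugation enzymes passed the test. In the limma fit over all 13471 tested genes, 3 of the 43 tested members (6.98%) had an adjusted p under 0.05, where 16.8% of all tested genes did. The UDP-glucuronosyltransferase Ugt2b38 was lower in the labelled knockdown, and the pi class transferase Gstp2 and the sulfotransferase Sult1c2 were higher. Higher calls made up 2 members of 43 beside 7.13% of all tested genes, and lower calls 1 member beside 9.65%. At an unadjusted p under 0.05 there were 0 higher and 4 lower Ugt genes, 2 higher and 0 lower Sult genes, and 3 higher and 1 lower Gst genes, where 13.9% of all tested genes were higher and 19.6% lower at that threshold. Over all genes 960 were called higher and 1300 lower. That split was 1212 to 1020 with median-of-ratios scaling and 894 to 720 once a trend with transcript length had been removed. The number of members called ranged from 0 to 7 over the alternative settings. It was 0 without control 2, without control 3 or without a filter on low values, and 6 of 42 tested members, or 14.3%, without control 5, beside 16.4% of all tested genes.

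Median log2 fold changes, labelled knockdown against control, were -0.23 over the 14 tested Ugt genes, 0.26 over the 7 Sult genes and 0.11 over the 22 Gst genes, beside -0.04 over all tested genes. Each of these medians kept its sign over the genes tested under the alternatives that filter on low values and in the 10 fits without 1 library. Without a filter, which brings in 10 more Sult genes, 8 of 17 Sult genes were above 0 and 9 below, with a median of -0.01, so the direction of the Sult median holds only for the genes above the filter. With the length trend removed they were -0.16, 0.26 and 0.03. The median transcript length was 2207 bases for the tested Ugt genes, 2143 for Sult and 1142 for Gst, beside 2970 for all tested genes. Levels also leaned with length by group, by 0.02 to 0.05 log2 units per doubling of length in the controls and by -0.06 to -0.01 in the labelled knockdown. Summed over the family, the controls held 926 to 1129 FPKM of Ugt and the labelled knockdown 913 to 1086. Sult sums were 280.2 to 343 and 316 to 411 FPKM, and Gst sums 2272 to 3360.4 and 2935 to 4103 FPKM. The ranges of the 2 groups overlapped in every family.

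**Figure D3:**
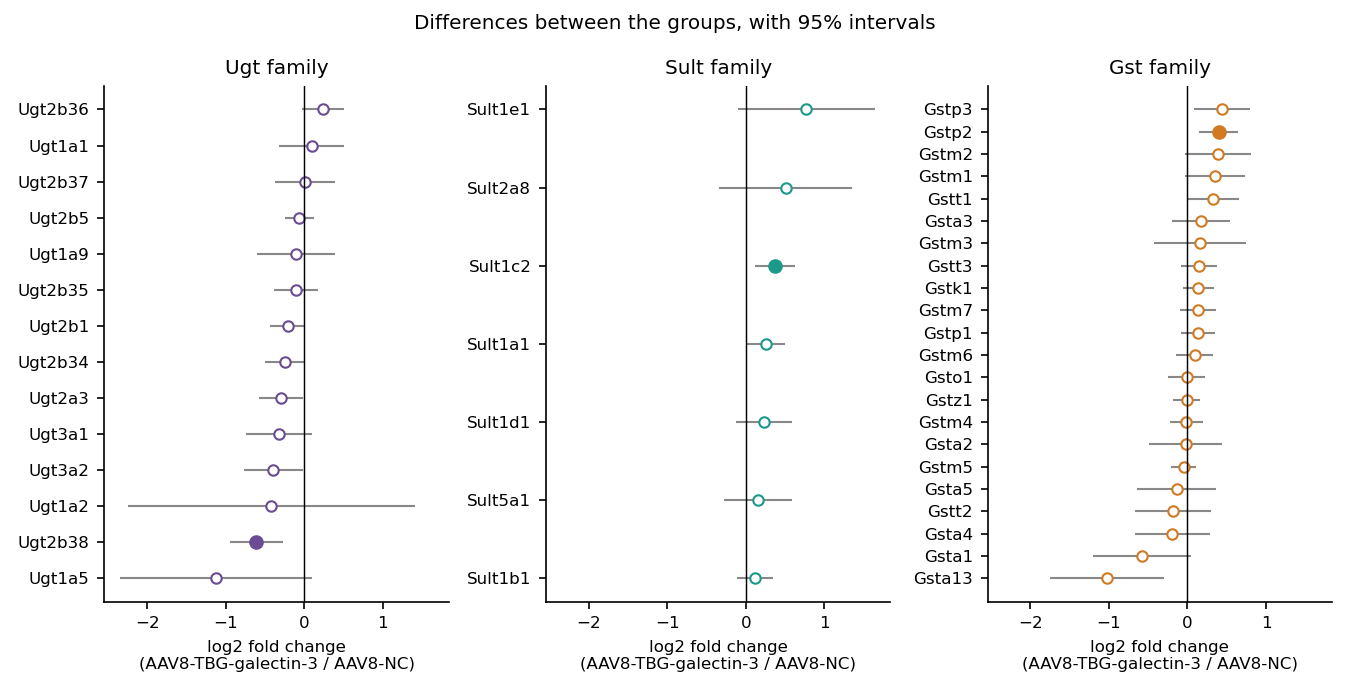
Log2 fold change of each tested member on the log2(FPKM + 1) scale with its unadjusted 95% interval from the limma fit, in panels for Ugt, Sult and Gst. Filled points are the 3 members with an adjusted p under 0.05 (Ugt2b38, Sult1c2 and Gstp2), open points the other 40; all 7 Sult points lie above 0 and 11 of 14 Ugt points lie below it.

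Among the glucuronosyltransferases the Ugt2b genes, which act on steroids, bile acids and many drugs, held the largest part of the level. Ugt2b5 was the most abundant, at 230.4, 283, 269, 243 and 246 FPKM in the controls and 241, 261, 256, 229 and 227 in the labelled knockdown. The groups overlapped fully, and the log2 fold change was -0.06 (SE 0.08, adjusted p = 0.623). Ugt2b36 was at 149, 180.5, 161, 161 and 125 FPKM in the controls and at 218, 202, 176, 149 and 177 in the labelled knockdown. Its log2 fold change was 0.24 (SE 0.12, adjusted p = 0.187), with 4 of 5 labelled knockdown libraries above the control mean.

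Ugt2b38 was the Ugt member that fell. Its level was 15.5, 20.6, 19.4, 17.7 and 16.7 FPKM in the controls and 7.00, 13.3, 13.1, 12.4 and 12.4 in the labelled knockdown. Every labelled knockdown library lay under every control, with the lowest value in library 1. Means were 18.0 ± 2.04 and 11.6 ± 2.63 FPKM (SD, n = 5 in each), and the log2 fold change was -0.61 (SE 0.15, adjusted p = 0.0241). It was the only tested member whose groups did not overlap, where the groups did not overlap in 13.1% of all tested genes. The call was lost without control 2 or control 3, with adjusted p no higher than 0.0601 in any fit without 1 library. It was also lost without a filter on low values (adjusted p = 0.0651). Ugt2b38 shares 37.4% of its 50-base stretches with other genes, chiefly Ugt2b5, so its value is uncertain to the extent that reads of the more abundant Ugt2b5 were assigned to it.

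The remaining Ugt2 and Ugt3 genes did not pass. Ugt2b34 averaged 93.9 and 79.1 FPKM (adjusted p = 0.137), Ugt2b1 69.3 and 59.8 (adjusted p = 0.161), and Ugt2b35 59.7 and 54.8 (adjusted p = 0.602). Ugt2a3 averaged 36.3 FPKM in the controls and 29.2 in the labelled knockdown (adjusted p = 0.123). Ugt2b37 was near 1 FPKM, and Ugt2a1 was listed at 0 in 9 libraries. The Ugt3 enzymes, named here by the symbols of the table, use other sugar donors than UDP-glucuronate. Ugt3a1 was at 67.8, 82.8, 87.4, 88.0 and 44.0 FPKM in the controls and at 41.4, 65.5, 64.6, 59.5 and 57.9 in the labelled knockdown, so only control 5 overlapped the second group. Its adjusted p was 0.258 with all libraries and 0.0348 without control 5, where the log2 fold change was -0.50. Ugt3a2, at 12.6 and 9.13 FPKM on average, likewise went from an adjusted p of 0.129 to 0.0197 without that library.

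**Figure D4:**
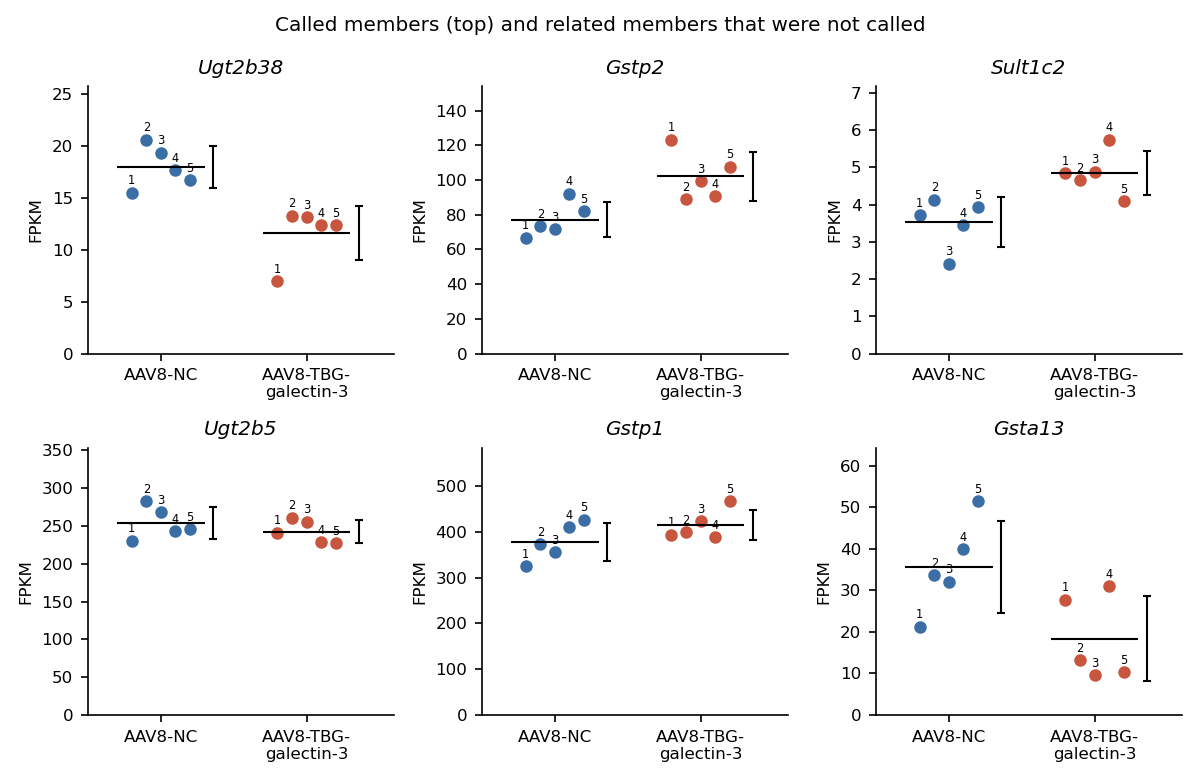
FPKM of 6 members in each library, numbered by replicate, on linear axes from 0, with the group mean as a line and 1 SD as a bar (n = 5). The top row holds the called members: Ugt2b38, without overlap, and Gstp2 and Sult1c2, where 1 control reaches into the range of the other group; the bottom row holds Ugt2b5, Gstp1 and Gsta13, which were not called.

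The Ugt1a genes form a single locus in which alternative first exons are spliced to shared exons, and Ugt1a1 is the enzyme that glucuronidates bilirubin. Ugt1a1 was at 239, 224, 228, 152 and 136 FPKM in the controls and at 196, 269, 148, 215 and 209 in the labelled knockdown. The groups overlapped, and the log2 fold change was 0.09 (SE 0.19, adjusted p = 0.764). Between 58.2% and 66.2% of the 50-base stretches of each Ugt1a member occur in other genes, so reads from the shared exons could be split among them in more than 1 way.

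Summed over the 9 Ugt1a genes of the table, the locus gave 266 to 334 FPKM in the controls and 265 to 333 in the labelled knockdown. How that total was divided varied between libraries. Ugt1a5 was at 16.2, 16.3, 19.8, 44.7 and 20.03 FPKM in the controls and at 3.45, 8.13, 48.6, 10.4 and 4.31 in the labelled knockdown. Control 4 and labelled knockdown library 3 were thus far above the rest of their groups, and in these 2 libraries Ugt1a1 was low, at 152 and 148 FPKM. The lowest Ugt1a1 of the 10, however, was that of control 5 at 136 FPKM, where Ugt1a5 was not high. The log2 fold change of Ugt1a5 was -1.12 (SE 0.56, adjusted p = 0.184), and it passed only without labelled knockdown library 3, at -1.69 (adjusted p = 0.0242). Ugt1a9 averaged 26.5 and 23.9 FPKM and Ugt1a2, apart from control 5, stayed at 2.41 FPKM or less.

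Ugt1a10 was too low for the test. It was at 0, 0.212, 0.0891, 0 and 0.0536 FPKM in the controls and at 1.99, 1.20, 0.342, 0.243 and 2.66 in the labelled knockdown, without overlap. In the limma fit without a filter its adjusted p was 0.0916. The authors' deposited table gives it a q of 0.0129 and a fold ratio of 18.1. It was the only member that carries the mark of significance there, which 1.34% of all genes carry. The members called here lacked the mark, with a deposited q of 0.0139 (Gstp2), 0.0172 (Sult1c2) and 0.0238 (Ugt2b38). Their deposited fold ratios were 1.32, 1.37 and 0.647. Of the Ugt1 genes whose symbols the name rule left out, Ugt1a6b fell from 27.9 ± 3.42 to 17.9 ± 3.79 FPKM (SD, n = 5; log2 fold change -0.63, SE 0.13, adjusted p = 0.0141). Ugt1a6a averaged 27.3 and 21.9 FPKM and did not pass (adjusted p = 0.281). The shared sequence of Ugt1a6a and Ugt1a6b was not measured. Both are among the genes that share most 50-base stretches with Ugt1a2 and Ugt1a5, so their values are uncertain as well.

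**Figure D5:**
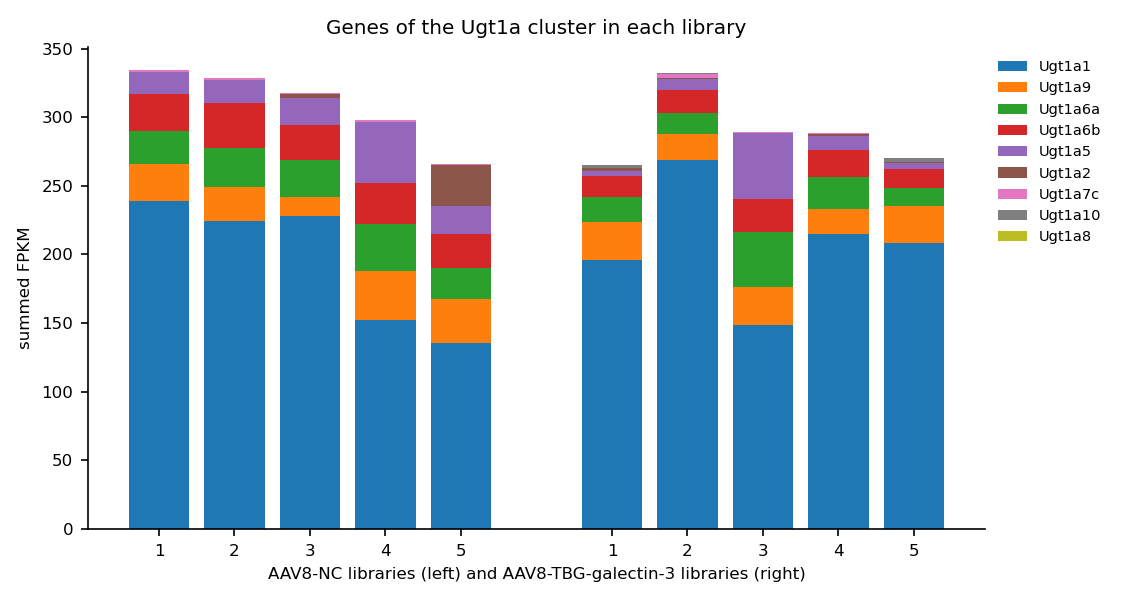
Stacked FPKM of the 9 genes of the Ugt1a locus in each of the 5 AAV8-NC (left) and 5 AAV8-TBG-galectin-3 (right) libraries, with the bars starting at 0. The totals lie between 265 and 334 in all 10 libraries, Ugt1a5 is widest in control 4 and labelled knockdown library 3, and Ugt1a2 is visible mainly in control 5.

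All 7 tested sulfotransferases had a log2 fold change above 0, from 0.12 to 0.77, but Sult5a1 was at -0.01 without control 5, and a single gene passed. Sult1a1, the main phenol sulfotransferase of liver, was at 200.3, 155, 178, 153 and 184 FPKM in the controls and at 234, 239, 203, 193 and 177 in the labelled knockdown. All 5 labelled knockdown libraries were above the control mean, yet the groups overlapped, and the log2 fold change of 0.26 (SE 0.11, adjusted p = 0.123) did not pass. Sult1d1, which acts on catecholamines, was at 64.5, 56.9, 49.2, 45.2 and 47.1 FPKM in the controls. In the labelled knockdown it was at 75.2, 76.6, 61.8, 59.4 and 40.8 FPKM, which took in both the highest and the lowest value of the 10 libraries (adjusted p = 0.354). Sult2a8, which sulfates bile acids in mouse liver, was at 43.1, 62.0, 54.2, 55.7 and 10.7 FPKM in the controls and at 47.9, 67.2, 63.4, 46.5 and 56.6 in the labelled knockdown. Its log2 fold change was 0.51 (SE 0.39, adjusted p = 0.39) and shrank to 0.06 without control 5.

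Sult1c2 was the sulfotransferase that rose. It was at 3.72, 4.13, 2.41, 3.45 and 3.94 FPKM in the controls and at 4.85, 4.66, 4.88, 5.75 and 4.09 in the labelled knockdown. Only labelled knockdown library 5 and control 2 crossed, and means were 3.53 ± 0.675 and 4.85 ± 0.596 FPKM (SD, n = 5). The log2 fold change was 0.38 (SE 0.12, adjusted p = 0.0466). When each library was left out in turn, Sult1c2 passed only without control 5, with adjusted p up to 0.0859 otherwise. The call was also lost with a pseudocount of 0.1, without a filter and with the length trend removed. Sult1c2 shares 0.72% of its 50-base stretches with other genes.

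Sult1e1, the estrogen sulfotransferase, had the highest fold change of the family and a wide spread. It was at 19.8, 3.74, 6.20, 11.7 and 15.3 FPKM in the controls and at 9.62, 13.0, 18.3, 26.5 and 26.0 in the labelled knockdown (log2 fold change 0.77, SE 0.40, adjusted p = 0.199). Sult1b1, which acts on thyroid hormones, averaged 9.37 and 10.2 FPKM (adjusted p = 0.472), and Sult5a1 averaged 0.89 and 1.07 (adjusted p = 0.607). Members given library by library beyond the called and the most abundant ones were chosen after their values had been seen.

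The glutathione transferases were the most abundant family, led by the mu class. Gstm1 was at 1378, 1286, 986, 1160.1 and 1888 FPKM in the controls and at 2188, 1646, 1538, 1615 and 1428 in the labelled knockdown. It ranked 40 of all genes by mean level. All 5 labelled knockdown libraries were above the control mean, but control 5 exceeded 4 of them, and the log2 fold change was 0.35 (SE 0.17, adjusted p = 0.186). Without control 5 it was 0.48, with an adjusted p of 0.0448. Gstm3 was at 274, 284, 164, 263 and 242 FPKM in the controls and at 519, 252, 176, 321 and 195 in the labelled knockdown. Library 1 of the labelled knockdown was far above the others, and the log2 fold change of 0.17 (SE 0.27, adjusted p = 0.701) was -0.07 without it. Of their 50-base stretches 23.1% (Gstm1) and 28.8% (Gstm3) occur in other genes, and their values are uncertain to that extent.

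Of the other mu class genes, Gstm2 averaged 82.1 and 109.6 FPKM (adjusted p = 0.177). Gstm4, Gstm5, Gstm6 and Gstm7 had log2 fold changes between -0.05 and 0.14, none of which passed. Gstm5 had the lowest coefficient of variation of all members, 6.95% over 10 libraries, with 7.52 ± 0.467 and 7.25 ± 0.573 FPKM (SD, n = 5).

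Of the pi class genes, whose products also bind signalling kinases, 1 of 3 passed. Gstp1 was at 326, 373, 355, 409.7 and 427 FPKM in the controls and at 394, 399.6, 424, 389 and 468 in the labelled knockdown. The groups overlapped, with a log2 fold change of 0.14 (SE 0.10, adjusted p = 0.35). Gstp2 was at 66.7, 73.4, 71.6, 92.0 and 82.0 FPKM in the controls and at 123, 89.1, 99.3, 90.6 and 108 in the labelled knockdown. All 5 labelled knockdown libraries were above the control mean, and only control 4 reached into their range. Means were 77.1 ± 9.98 and 102 ± 14.0 FPKM (SD, n = 5), and Gstp2 rose by a log2 fold change of 0.40 (SE 0.11, adjusted p = 0.0363).

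When each library was left out in turn, Gstp2 passed in 4 of 10 fits. It did not pass without control 1, 2 or 3 or without labelled knockdown library 1, 3 or 5, with adjusted p up to 0.0821. The call was also lost without a filter, with quantile normalization and with the length trend removed (0.26, adjusted p = 0.132). Gstp2 shares 72.6% of its 50-base stretches with other genes, chiefly Gstp1, and its value is uncertain to that extent. Gstp3, which shares none, was at 26.9, 20.3, 19.4, 26.4 and 21.05 FPKM in the controls and at 26.5, 23.8, 35.8, 28.2 and 44.8 in the labelled knockdown. Its log2 fold change of 0.44 (SE 0.16, adjusted p = 0.0867) did not pass.

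The alpha class transferases, which reduce lipid hydroperoxides and conjugate lipid aldehydes, gave no call. Gsta13 was at 21.2, 33.6, 32.1, 40.0 and 51.5 FPKM in the controls and at 27.8, 13.2, 9.61, 31.0 and 10.3 in the labelled knockdown. Libraries 1 and 4 of the labelled knockdown lay among the controls and the other 3 below all of them. Its log2 fold change of -1.02 (SE 0.33, adjusted p = 0.0543) missed the threshold, and it passed with array weights, with the length trend removed, and without control 1 or labelled knockdown library 1 or 4. Gsta1 averaged 31.7 and 21.5 FPKM (adjusted p = 0.18) and Gsta2 40.9 and 40.7 (adjusted p = 0.957). Of their 50-base stretches 92.5% (Gsta13), 89.7% (Gsta1) and 64.2% (Gsta2) occur in other genes, so the values of these copies are uncertain. Gsta3, the most abundant alpha gene, averaged 132 and 146 FPKM, with control 5 lowest at 81.7. Gsta4, which detoxifies 4-hydroxynonenal, averaged 39.6 and 36.4 FPKM (adjusted p = 0.565), and Gsta5 stayed at 1.37 FPKM or less.

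Among the theta, kappa, omega and zeta classes no gene passed, and Gstt1 alone had an unadjusted p under 0.05. Gstt1 averaged 83.7 and 105 FPKM (adjusted p = 0.148) with control 5 far below the rest, Gstt2 11.3 and 10.3, and Gstt3 4.12 and 4.67. Gstk1, a mitochondrial and peroxisomal enzyme, averaged 36.3 and 39.9 FPKM (adjusted p = 0.297). Gsto1 averaged 23.7 and 23.5, and Gstz1, which acts in tyrosine breakdown, 90.6 and 90.0.

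The enzymes and carriers that supply the families with donors were read from lists of related genes. Of 4 genes of UDP-glucuronate supply and glucuronide cleavage, 1 fell: Gusb, the lysosomal beta-glucuronidase, from 10.9 to 7.77 FPKM (adjusted p = 0.0188). Ugdh, which makes UDP-glucuronate, averaged 35.1 and 24.9 FPKM, with control 5 highest at 50.6 (adjusted p = 0.105), and Ugp2, which makes UDP-glucose, 137 and 148 (adjusted p = 0.392). Of 8 genes of PAPS supply and sulfate handling, 2 fell, both phosphatases that remove the by-product of sulfation. Bpnt1 went from 21.7 to 16.6 FPKM (adjusted p = 0.022) and Bpnt2 from 7.23 to 5.61 (adjusted p = 0.0404). Papss2, the PAPS synthase, averaged 24.3 and 23.9 FPKM (adjusted p = 0.85).

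In glutathione synthesis and turnover 1 of 12 genes passed, Chac2, a glutathione-degrading cyclotransferase, which rose from 21.3 to 29.1 FPKM (adjusted p = 0.0234). Gclc, the catalytic subunit of the rate-limiting ligase, averaged 106 and 99.7 FPKM (adjusted p = 0.716). Of 5 membrane-bound and other transferases, Mgst3 rose from 23.4 to 30.4 FPKM (adjusted p = 0.0488) and Gstcd fell from 1.16 to 0.61 (adjusted p = 0.0172). Mgst1, the abundant microsomal enzyme, averaged 724 and 853 FPKM (adjusted p = 0.114). No gene passed among 14 of methyl, acetyl and amino acid conjugation or 7 exporters of conjugates, which held 1 and 2 genes at an unadjusted p under 0.05.

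Of 15 transcription factors and cofactors that regulate these families, 2 rose and 4 fell, beside 7.13% of all tested genes called higher and 9.65% lower. Nr1i3, which encodes CAR, was at 29.6, 18.7, 28.6, 21.5 and 10.2 FPKM in the controls and at 53.7, 82.5, 51.4, 34.0 and 36.3 in the labelled knockdown, without overlap (log2 fold change 1.22, SE 0.29, adjusted p = 0.0208). The groups did not overlap in 13.1% of all tested genes, and among these regulators Hnf4a, Rxra and Mafg did not overlap either. Mafg, at 27.7 and 32.0 FPKM on average, was higher but not called (adjusted p = 0.058). Nr1h4, the bile acid receptor FXR, rose from 34.3 to 44.5 FPKM (adjusted p = 0.0248). The hepatocyte factor Hnf4a fell from 86.5 to 64.3 FPKM (adjusted p = 0.00944) and Rxra, the partner of CAR, from 43.9 to 29.8 (adjusted p = 0.02). Ppara fell from 8.88 to 4.90 FPKM (adjusted p = 0.0224) and Cebpa from 121 to 86.5 (adjusted p = 0.0369).

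The xenobiotic sensors Nr1i2 (PXR), Ahr and Nfe2l2 (NRF2) did not pass, with log2 fold changes of -0.06, 0.10 and -0.06 (adjusted p = 0.777, 0.502 and 0.696). Of 6 NRF2 targets outside the transferases 2 fell, Hmox1 (-0.60, adjusted p = 0.0242) and Txnrd1 (-0.29, adjusted p = 0.038). Of 10 tested targets of CAR, PXR and the aryl hydrocarbon receptor, most of them P450 genes, 1 fell, Cyp3a13 (-0.46, adjusted p = 0.0393). Cyp2b10, also on that list, stayed at 0.511 FPKM or less in every library and was too low for the test. Over all 10 pathway lists 16 of 84 tested genes were called, or 19.0%, beside 16.8% of all tested genes, and 6 of the 16 stayed called in all 10 fits without 1 library: Gusb, Ugt1a6b, Gstcd, Hnf4a, Nr1i3 and Rxra.

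Marker genes of liver cells were read in the same libraries, where 7.13% of all tested genes were called higher and 9.65% lower. Hepatocyte markers were abundant in all of them, and 1 of 8 rose (Ttr) while 2 fell (Apob and Cps1), with a summed level of 36399 to 40778 FPKM in the controls and 32371 to 41710 in the labelled knockdown. Of 5 Kupffer cell markers 2 fell, Adgre1 from 6.63 to 3.00 FPKM (adjusted p = 0.00684) and Cd5l from 53.1 to 25.8 (adjusted p = 0.016), and the list summed to 125 to 192 and 89.1 to 129 FPKM. Of 8 stellate and fibroblast markers Col1a1 fell (adjusted p = 0.0499), and of 7 sinusoidal endothelial markers Pecam1 fell (adjusted p = 0.0445). No cholangiocyte, monocyte-derived macrophage or lymphocyte marker passed among 4, 6 and 1 tested, of which 1, 1 and 0 had an unadjusted p under 0.05. Of the zonal markers, 0 of 9 pericentral genes and 1 of 8 periportal genes, Sds (adjusted p = 0.0398), passed. When each library was left out in turn, Apob, Cps1, Adgre1 and Cd5l stayed called in all 10 fits. Ttr was called in 4 of these fits, Col1a1 and Pecam1 in 2 each, and Sds in 1. The pericentral sum was 1956 FPKM in control 5, 3781 to 4583 in the other controls and 3567 to 5770 in the labelled knockdown. No marker of any list was at 0 in all 10 libraries, and the part of these markers in the members' values was not tested.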

How the data were processed

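Liver RNA was sequenced in 5 AAV8-NC and 5 AAV8-TBG-galectin-3 libraries, grouped and numbered by the sample titles. Libraries were strand-marked and made from poly(A) RNA, per the labels' protocols; how the quantification treated strand is stated in no source used here. Programs that the submitters' processing notes list are cutadapt 1.9, HISAT2 2.0.4 and StringTie 1.3.4d. They name a human build although the gene identifiers are of mouse, so the build behind the values is not known and no coordinates were taken from them.

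Per the file headers, the values deposited for the libraries are FPKM. The authors' deposited table adds a fold ratio of the groups and its log2, as well as a p-value and a q-value from a test that no source used here names. Every library column entered, and 0 pairs of them held the same values. The commonest step among low values put the depth at about 15.4 to 19.3 M fragments a library (M for mega). Only between 11.7 and 13.6% of the low values fell on whole steps (tolerance 0.02), so whole reads were not recovered, no counting interval is given, and precision rests on the spread within groups.

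Genes with at least 0.5 FPKM in at least 5 libraries (13471) were compared as log2(FPKM + 1), with no rescaling, by limma 3.58.1 in R 4.3.3 (mean-variance trend, two-sided p, Benjamini-Hochberg over all of these genes, threshold 0.05). Fold changes are on that scale and understate the change of low genes. The fit was tested on simulated data. Alternatives were another pseudocount or minimum, no filter, other scalings, no trend, array weights, a replicate block, removal of a length trend, and each library left out. Shared sequence was the share of 50-base stretches of a gene's longest GENCODE M21 transcript that occur in transcripts of other genes. Values of each library are given for called members and the 3 most abundant of each family, and related genes are named where called or where the plan named them. The members and gene lists were chosen with earlier results of these data known.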

Additional observations from a re-analysis of the deposited data

Results flagged for a closer look

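In 10 of 94 groups of 5 libraries (members that reached 0.5 FPKM in any library, in each vector group, as log2(FPKM + 1)), the highest or lowest library lay apart from the others by more than 0.71 of the group's range; chance gives about 1 in 20. Control library 5 accounted for 5 of them. It was low at Gstt1, with 56.0 FPKM against 86.4 to 95.9 in the other controls, and at Sult2a8, with 10.7 against 43.1 to 62.0. It was high at Sult2a2, with 16.7 FPKM against 0.382 to 0.677, at Sult2a1, with 0.799 against 0.0282 to 0.133, and at Sult2a5, with 0.767 where the other controls were listed at 0. Sult2a1, Sult2a2 and Sult2a5 share sequence, so their values are not independent. Control library 4 was high at Ugt1a5, with 44.7 FPKM against 16.2 to 20.03. In the labelled knockdown, library 1 was low at Ugt2b38, with 7.00 FPKM against 12.4 to 13.3, and at Ugt3a1, with 41.4 against 57.9 to 65.5. Library 5 was low at Ugt2b1, with 47.5 FPKM against 60.0 to 64.3, and library 4 was high at Sult2a1, with 0.19 against 0 to 0.0503.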

How the results depend on the processing

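Without a filter on low values 0 Ugt, Sult and Gst members were called, and 1193 of all 29657 genes. Array weights gave 3 lower Ugt, 2 higher Gst and 1 lower Gst members. With the length trend removed there were 0 higher Sult, 0 higher Gst and 1 lower Gst members. Sult calls were 0 with a pseudocount of 0.1, and higher Gst calls 0 with quantile normalization. Replicate numbers did not pair the libraries: same-numbered deviations correlated at -0.01 to 0.11, and with the replicate block 0 higher Sult members, 1 lower Ugt and 1 higher Gst member (Gstm2) were called, with 1755 genes in all; Sult1c2 (adjusted p = 0.0749 by limma) and Gstp2 (0.0741) were not called there; library 1 alone correlated best with its own number. Leaving out each library in turn gave 0 to 3 lower Ugt, 0 to 1 higher Sult, 0 to 2 higher Gst and 0 to 1 lower Gst members, and 1025 to 2687 of all genes, over 1.5 times fewer than in the full fit without control 2, 3 or 4 or labelled knockdown library 1, 3 or 5. No higher Ugt or lower Sult member was called under any of these settings. The causes were not tested.

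Without a filter the median log2 fold change over all 17 Sult genes was -0.0071. Signs of single members turned only in those that were not called. Log2 fold changes became 0.025 (Gsta2), 0.030 (Gstm4), 0.036 (Gsto1) and 0.035 (Gstz1) with median-of-ratios scaling, and 0.0050 (Gsto1) and 0.013 (Ugt2b5) with quantile normalization. With array weights they became 0.080 (Gsta5), -0.057 (Gstm3), 0.036 (Gstm4), 0.083 (Gsto1), 0.070 (Gstz1), -0.094 (Ugt1a1), 0.0073 (Ugt1a9) and 0.022 (Ugt2b35). They became 0.060 (Gstz1) and -0.0038 (Ugt2b37) with the length trend removed, and 0.52 (Ugt1a2) with a pseudocount of 0.1. Without 1 library the ranges were -0.14 to 0.12 (Gsta2), -0.34 to 0.0018 (Gsta4), -0.21 to 0.019 (Gsta5), -0.070 to 0.32 (Gstm3), -0.077 to 0.029 (Gstm4), -0.054 to 0.078 (Gsto1), -0.043 to 0.028 (Gstz1), -0.012 to 0.27 (Sult5a1), -0.028 to 0.21 (Ugt1a1), -0.76 to 0.49 (Ugt1a2), -0.31 to 0.020 (Ugt1a9) and -0.067 to 0.18 (Ugt2b37). FPKM gives no depth of a gene, so members under 1 FPKM cannot be compared beyond their listed values.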
